A study of Rattus norvegicus with 10 samples.

Results

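Semaphorins, plexins and neuropilin-1 were described in rat splenic M2 macrophages. The set was given as 10 gene names, Sema4a, Sema4b, Sema4d, Sema4c, Sema6d, Plxnb2, Plxnd1, Plxna1, Plxnc1 and Nrp1, and its members were those among the 9003 genes of the deposited table. Of the 10 names, 6 were in the table. The other 4, Sema4c, Sema6d, Plxna1 and Plxnc1, were not analysed here. The members were thus chosen by their names and by the authors' filter on measured level, which kept genes that reached 1 normalised CPM (read counts scaled to a common library size) in at least 1 library. The member nearest that limit was Plxnd1, with a highest level of 3.04 CPM. The names were chosen with earlier results of these data known, so the tests below are a description of the members and are not independent evidence that the family moves.

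Semaphorins are secreted or membrane-bound ligands that share a sema domain, and plexins are their main cell-surface receptors. A plexin that binds a semaphorin acts through a GTPase-activating domain on R-Ras and Rap proteins and, for the B-type plexins, through guanine nucleotide exchange factors on RhoA, and so changes the actin skeleton and integrin adhesion. Neuropilins are co-receptors with short cytoplasmic tails that hold secreted semaphorins and vascular endothelial growth factor. In the immune system the class 4 semaphorins are known for contacts between myeloid cells and T or B cells.

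RNA-seq was performed on M2 macrophages sorted from the spleens of WKY/NCrj rats, and the study asked how extracellular vesicles (EVs) of transplanted cells change these macrophages. The control group (n = 2) came from healthy rats, and the GN group (n = 2) from rats given the mouse monoclonal antibody TF78 against the glomerular basement membrane, which causes crescentic glomerulonephritis. The other 6 libraries came from nephritic rats that had also received human adipose-derived stem cells (ASCs) stained with the membrane dye DiD. Dye-positive macrophages formed the EV+ group (n = 3, EVposi in the labels) and dye-negative macrophages of such rats the EV− group (n = 3, EVnega). The nephritis model used female rats. Because EV+ and EV− cells were both exposed to nephritis and to ASCs, only the dye separated these groups, and there was no healthy group given ASCs. The study describes its libraries as 2 or 3 biological replicates. The labels do not say which rat each library came from.

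The recovered reads numbered 19270515 to 26617093 per library, and 3 reads corresponded to 0.113 to 0.153 CPM. The 11 listed macrophage markers in the table summed to 25400 to 25735 CPM in control and 29478 to 31642 CPM in the others. Lyz2 and Csf1r made up most of that sum, with lowest values of 15325 and 5800 CPM. Other markers of the list were low. C1qa, C1qb and C1qc stayed at or under 11.2 CPM. Cd163 and Mrc1, often used to name M2 macrophages, stayed at or under 1.81 CPM and were at 0 in some libraries. The listed markers Marco, Mertk and Vsig4 were not in the table. The 11 listed markers of NK and T cells summed to 983 CPM in EV− replicate 1 and to 278 to 427 CPM in the other 9 libraries, in which Cd8a and Cd8b made up most of the sum. The cytotoxic gene Prf1 was at 335, 51.4 and 24.5 CPM in EV− and at or under 18.4 CPM in the other 7 libraries, and Nkg7, Gzmb and Il2rb were likewise higher in each EV− library than in those 7. The mean of 10 of the 11 markers was higher in EV− than in GN, with a median log2 difference of 1.45 and 0 called by limma, and the part of these cells in the EV− values below was not tested. The 4 B cell markers used here summed to 89.4 and 111 CPM in control and to 44.0 to 76.9 CPM in the other 8 libraries. A lower share of another cell type and less RNA per cell cannot be told apart in these bulk samples.

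Of the 6 members, Sema4a moved most. Sema4a is a membrane semaphorin known as a costimulatory ligand for T cells. It was at 3.20 and 2.85 CPM in control, at 16.2 and 20.2 CPM in GN, at 6.45, 6.74 and 12.6 CPM in EV+, and at 6.32, 6.07 and 14.4 CPM in EV−. Both GN libraries lay above all 8 others, the 6 EV libraries lay between control and GN, and control was lowest. These values rested on 69 to 537 reads per library.

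Sema4b, also a membrane-bound class 4 semaphorin, was at 6.12 and 6.60 CPM in control, at 12.8 and 8.81 CPM in GN, at 10.8, 12.3 and 13.6 CPM in EV+, and at 12.4, 9.23 and 12.4 CPM in EV−. Both control libraries lay below all 8 nephritis libraries, and the 3 nephritis groups overlapped one another.

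The sequence upstream of Sema4a and Sema4b is shown because these were the 2 members with a called change. Each is the 250 bases before the annotated RefSeq gene start in the build GRCr8, which differs from the rn6 build used for the counts. Sema4a lies on the minus strand (chr2:176212259-176212508) and Sema4b on the plus strand (chr1:143558547-143558796). Capitals mark matches to the GC box GGGCGG and the PU.1 motif GAGGAAG on either strand.
Sema4a: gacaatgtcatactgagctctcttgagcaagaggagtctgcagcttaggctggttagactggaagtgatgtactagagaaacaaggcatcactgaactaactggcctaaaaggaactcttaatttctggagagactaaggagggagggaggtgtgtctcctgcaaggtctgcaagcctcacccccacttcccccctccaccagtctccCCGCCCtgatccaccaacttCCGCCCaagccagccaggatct
Sema4b: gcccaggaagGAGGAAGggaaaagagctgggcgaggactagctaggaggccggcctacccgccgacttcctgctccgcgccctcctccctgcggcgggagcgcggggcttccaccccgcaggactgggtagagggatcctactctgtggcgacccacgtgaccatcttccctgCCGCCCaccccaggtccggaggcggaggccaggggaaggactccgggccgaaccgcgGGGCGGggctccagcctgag

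In Sema4a the GC boxes began 42 and 22 bases before the start, and in Sema4b 77 and 20 bases before it. A GC box was found in 30.5% of 33469 RefSeq promoters of that length. The PU.1 motif, named for a factor that macrophages depend on, was matched 240 bases before the Sema4b start and not upstream of Sema4a, and 10.2% of promoters held it. The matches did not overlap each other. Bases G and C made up 53.2% of the Sema4a stretch and 71.6% of the Sema4b stretch, beside a median of 51.2% over all promoters. Neither stretch held the AP-1 motif TGANTCA (6.34% of promoters), the CRE motif TGACGTCA (1.59%), the RBPJ motif GTGGGAA (5.27%) or TATAAA (12.9%). Of the 6 members, 5 had a RefSeq promoter entry, and Sema4d had none. A match describes letters in a window, not a bound site.

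**Figure D1:**
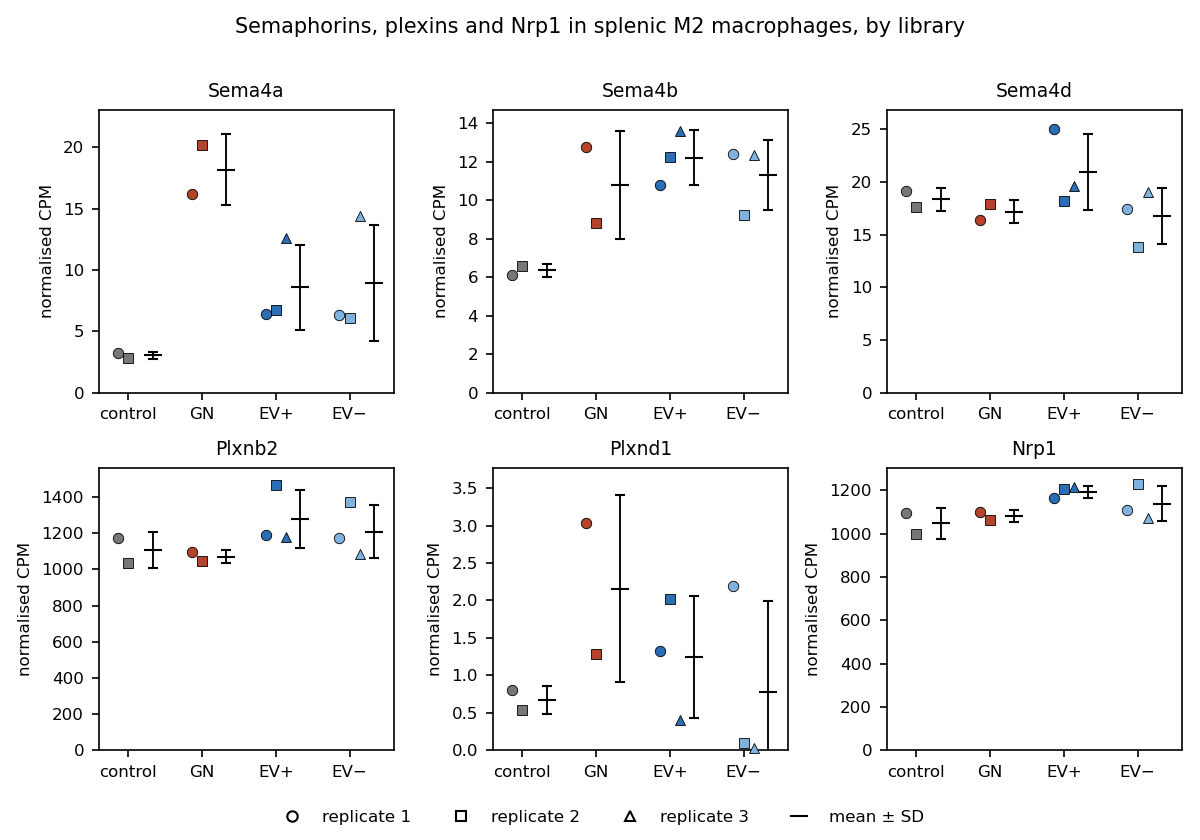
Normalised CPM of the 6 members (vertical axes, from 0) in each library of control, GN, EV+ and EV− (horizontal axes). Symbols are single libraries by replicate number and black marks the group mean ± SD, with bars ending at 0 where they would go below it. The 2 GN libraries of Sema4a sit at 16.2 and 20.2 CPM above all others, and replicate 3 is the highest of its group in both EV+ and EV−.

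The effect of nephritis alone was read from GN against control. Sema4a was 6.02-fold higher in GN on the ratio of mean CPM (18.2 ± 2.87 against 3.02 ± 0.248, SD, n = 2 each). On the log2(CPM + 1) scale used for all tests the difference was 2.25 (SE 0.36, 95% interval 1.49 to 3.01, limma adjusted p = 0.00693). Sema4a was the only one of 6 members called higher at an adjusted p under 0.1, and none was called lower. Of all 9003 genes, 0.933% were called higher and 0.822% lower. Without GN replicate 2 the Sema4a difference was 2.10 with an adjusted p of 0.107, so its call rested in part on that library.

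Sema4b had a mean of 10.8 CPM in GN against 6.36 CPM in control. Its log2 difference was 0.66 (SE 0.21), and its adjusted p of 0.227 missed the threshold. The edgeR likelihood-ratio test gave it an adjusted p of 0.0976, which passed it. Sema4a, Sema4b and Plxnd1 had GN libraries that lay wholly above control, as did 21.9% of all genes. Over the 6 members the median log2 difference was 0.35, beside 0.00 over all genes.

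Most summed marker lists separated the same groups, and 21.9% of all genes had GN libraries wholly above control. The 2 erythroid markers Hba1 and Hbb summed to 1.19 and 1.61 CPM in control and to 6.44 and 7.26 CPM in GN. The 4 dendritic cell markers summed to 25.7 and 31.7 CPM in control and to 35.7 and 37.4 CPM in GN, and the 2 endothelial markers, Pecam1 and Plvap, to 239 and 259 CPM and to 342 and 347 CPM. Their part in the Sema4a difference was not tested.

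Both ASC groups were next set against control, and these 2 comparisons and the one above share the same 2 control libraries. In EV+, Sema4a averaged 8.59 ± 3.46 CPM (SD, n = 3), a log2 difference of 1.20 from control (SE 0.32, adjusted p = 0.0804). In EV− it averaged 8.94 ± 4.76 CPM (SD, n = 3), a log2 difference of 1.21 (SE 0.32, adjusted p = 0.0901). Every EV library lay above both control libraries for Sema4a and Sema4b.

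Sema4b averaged 12.2 ± 1.41 CPM in EV+ and 11.3 ± 1.82 CPM in EV− (SD, n = 3 each). Its log2 differences from control were 0.84 (SE 0.20, adjusted p = 0.0398) and 0.73 (SE 0.20, adjusted p = 0.0862). In a fit blocked by replicate number the EV− value was 0.66 with an adjusted p of 0.141, and the call was lost, while 3.22% of all genes were called. Thus 2 of 6 members were called higher in EV+ against control and the same 2 in EV−, and 0 were called lower. The shares of all genes called higher were 1.82% in EV+ and 1.29% in EV−, and the shares called lower were 1.81% and 1.56%. The shares of all genes whose EV libraries lay wholly above control were 14.9% and 15%.

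Each of these calls depended on single libraries. Apart from Sema4b in EV+ (limma adjusted p = 0.0398), they were also close to the threshold. The EV+ call of Sema4a was lost without control replicate 1 (adjusted p = 0.222), control replicate 2 (0.376), GN replicate 1 (0.115), GN replicate 2 (0.116) or EV+ replicate 3 (0.247). The EV− call of Sema4a was lost without control replicate 1 (adjusted p = 0.259), control replicate 2 (0.413), GN replicate 1 (0.130), GN replicate 2 (0.132), EV− replicate 1 (0.107) or EV− replicate 3 (0.205). For Sema4b, the EV+ call was lost without control replicate 1 (adjusted p = 0.197), control replicate 2 (0.192) or EV+ replicate 3 (0.150), and the EV− call without control replicate 1 (0.310), control replicate 2 (0.307), EV+ replicate 3 (0.118), EV− replicate 1 (0.204) or EV− replicate 3 (0.211). In each of these fits the difference kept its sign.

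**Figure D2:**
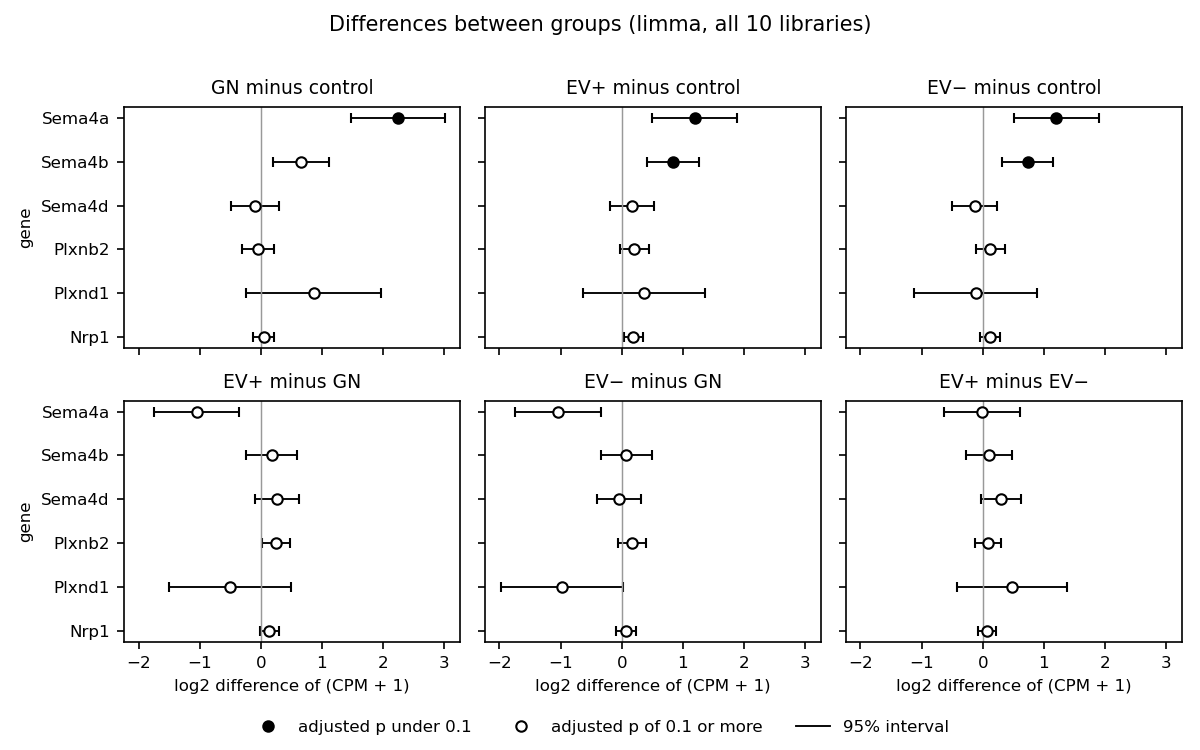
Difference of log2(CPM + 1) between group means for the 6 members in 6 comparisons (limma on all 10 libraries), with 95% intervals. Filled points have an adjusted p under 0.1: Sema4a in the 3 comparisons with control and Sema4b in the 2 comparisons of EV groups with control.

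Against GN, both EV groups had lower Sema4a means. The ratio of mean CPM was 0.472 for EV+ and 0.491 for EV−, and the 6 EV libraries, the highest at 14.4 CPM, lay below both GN libraries. Of all genes, 11.8% had EV+ libraries wholly below GN and 12.8% had EV− libraries wholly below it. The log2 difference was -1.05 in EV+ (SE 0.32, 95% interval -1.75 to -0.35, unadjusted p = 0.00603 and adjusted p = 0.469 by limma) and -1.04 in EV− (SE 0.32, 95% interval -1.74 to -0.34, unadjusted p = 0.00639 and adjusted p = 0.347 by limma). Neither passed the threshold.

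When all 10 libraries were blocked by replicate number, both differences passed it. The blocked log2 differences of Sema4a were -1.37 in EV+ (SE 0.19, adjusted p = 0.0210) and -1.37 in EV− (SE 0.19, adjusted p = 0.00865), in fits that called 0.333% and 0.589% of all genes. In a fit added after the data were seen, in which only same-numbered EV+ and EV− libraries were paired, the adjusted p was 0.357 in EV+ and 0.266 in EV−. The first of these blocked fits also ties control and GN libraries by number, and there is no GN replicate 3 to set beside the high EV replicates. Without EV− replicate 3 the EV− difference was -1.41 with an adjusted p of 0.0729.

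No member was called in either comparison with GN by limma, edgeR's quasi-likelihood test, its likelihood-ratio test or DESeq2. At an unadjusted p under 0.05 limma picked 2 members in EV+ against GN, Sema4a and Plxnb2, and 1 in EV− against GN, Sema4a, beside 7.13% and 7.85% of all genes. At the adjusted threshold few genes of the table were called, 0.122% in EV+ and 0.378% in EV−.

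EV+ and EV− were also compared within the replicate numbers because same-numbered libraries deviated together across genes. For Sema4a the pairs read 6.45 and 6.32 CPM in replicate 1, 6.74 and 6.07 CPM in replicate 2, and 12.6 and 14.4 CPM in replicate 3. Both libraries of replicate 3 were thus higher than all 4 of replicates 1 and 2, a pattern that 7.36% of all genes shared. The log2 difference between EV+ and EV− was -0.01, with an SE of 0.29 and a 95% interval of -0.63 to 0.61 without pairing. The SE was 0.17 with the replicate block fitted to the 6 EV libraries and 0.21 with the EV pairs as a random block.

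Sema4d, the class 4 semaphorin that binds plexin-B1 and Cd72, was at 19.1 and 17.6 CPM in control, 16.4 and 18.0 CPM in GN, 25.0, 18.2 and 19.7 CPM in EV+, and 17.4, 13.9 and 19.1 CPM in EV−. EV+ exceeded EV− in each of the 3 same-numbered pairs, and the 2 groups overlapped. The log2 difference was 0.30 (SE 0.15, 95% interval -0.02 to 0.63, unadjusted p = 0.0642 and adjusted p = 0.9997 by limma, 0.465 with the EV pairs as a random block). Its difference between GN and control was -0.09 (95% interval -0.49 to 0.30).

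No member was called between EV+ and EV− by limma, either edgeR test or DESeq2, and none had an unadjusted p under 0.05 in any of these 4 tests, while 4.57% of all genes had one by limma. Only 0.0222% of all genes were called in this comparison by limma. That share was 0.289% with the EV pairs as a random block and 0.544% with the replicate block fitted to the 6 EV libraries, and no member was called in these fits either.

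Of the receptors, Plxnb2 and Nrp1 had the most reads and the narrowest spread. Plexin-B2 is a receptor for class 4 semaphorins. Plxnb2 was at 1176 and 1034 CPM in control, 1097 and 1045 CPM in GN, 1193, 1465 and 1182 CPM in EV+, and 1172, 1371 and 1083 CPM in EV−. Replicate 2 was the highest library of both EV groups, and the GN and control ranges overlapped. From the lowest to the highest library the level changed 1.42-fold.

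The Plxnb2 difference of EV+ from GN was 0.25 (SE 0.11, 95% interval 0.01 to 0.49, unadjusted p = 0.0396 and adjusted p = 0.686 by limma), and all 3 EV+ libraries lay above both GN libraries, as they did for 11.2% of all genes. Against control the same 3 libraries also lay above, as for 14.9% of all genes, with a log2 difference of 0.21 (SE 0.11, adjusted p = 0.406). The difference between GN and control was -0.04 (95% interval -0.30 to 0.22).

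Nrp1, the co-receptor, was at 1096 and 997 CPM in control, 1100 and 1063 CPM in GN, 1162, 1205 and 1214 CPM in EV+, and 1110, 1229 and 1074 CPM in EV−. All 3 EV+ libraries lay above the control and GN libraries, while EV− overlapped GN. Of all genes, 14.9% had EV+ libraries wholly above control and 11.2% had them wholly above GN. The log2 difference of EV+ from control was 0.19 (SE 0.07, 95% interval 0.03 to 0.35, unadjusted p = 0.0235 and adjusted p = 0.246 by limma). Over the 10 libraries Nrp1 varied 1.23-fold, the least of the members whose lowest library was above 3 reads.

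Plexin-D1, a receptor for Sema3e that also binds Sema4a, was near the limit of detection. Plxnd1 was at 0.809 and 0.536 CPM in control, 3.04 and 1.28 CPM in GN, 1.33, 2.02 and 0.401 CPM in EV+, and 2.19, 0.102 and 0.0389 CPM in EV−. EV− replicates 2 and 3 held 2 reads and 1 read, at or under the 3 reads taken as the floor, and EV− replicate 1 held 45. The difference of GN from control was 0.86 (SE 0.51, 95% interval -0.23 to 1.96, adjusted p = 0.628), and limma called no difference between groups of Plxnd1.

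Group means were ordered control, EV+, EV− and GN for Sema4a, and only the neighbours EV+ and EV− overlapped. For Sema4b the order was control, GN, EV− and EV+, with control alone separate. For Sema4d, Plxnb2, Plxnd1 and Nrp1 every pair of neighbours in the order overlapped. In the test across the 4 groups 1 of 6 members was called, Sema4a (limma F test, adjusted p = 0.0215), beside 2.57% of all genes. That call was lost without control replicate 1 (adjusted p = 0.117), control replicate 2 (0.163) or GN replicate 2 (0.131).

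**Figure D3:**
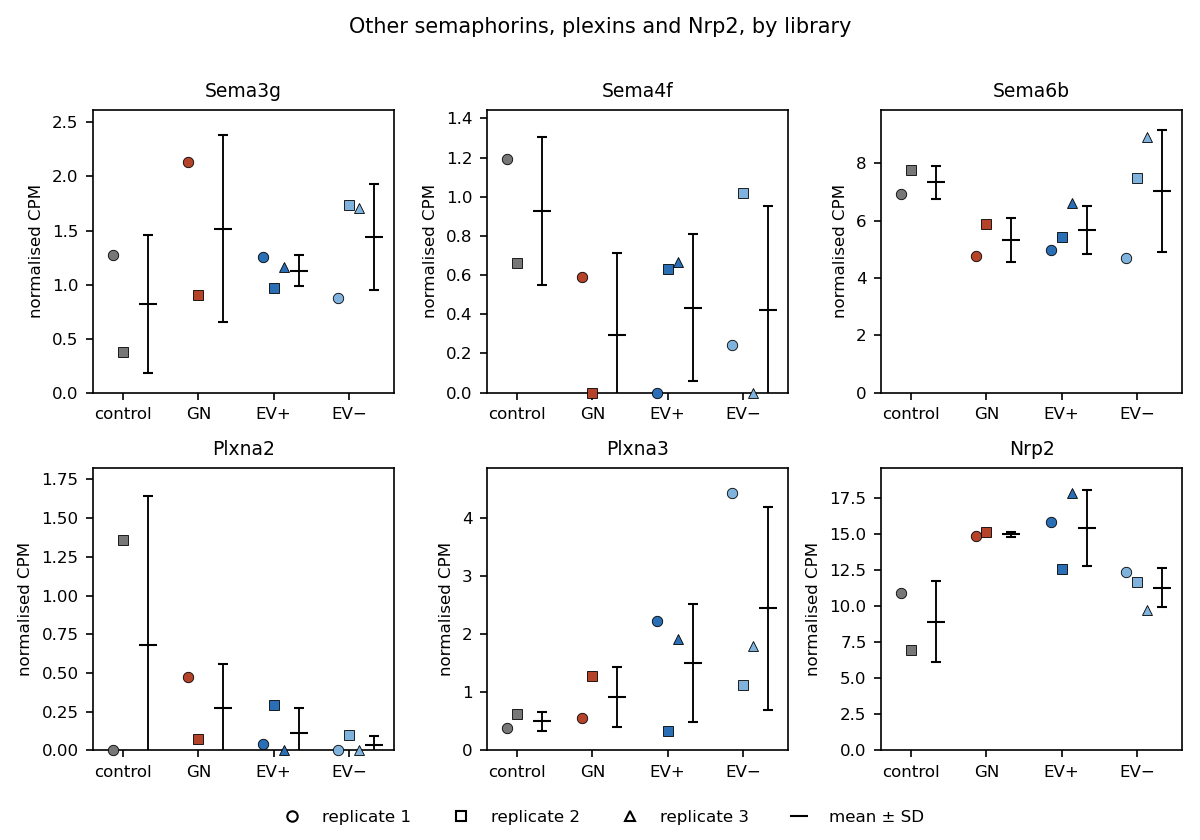
Normalised CPM of the 6 other semaphorins, plexins and neuropilins in the table (vertical axes, from 0) by library and group, with single libraries as symbols and the group mean ± SD in black, its bars ending at 0 where they would go below it. The Nrp2 libraries of GN and EV+, at 12.6 to 17.8 CPM, lie above both control libraries, and Sema4f and Plxna2 have libraries at 0.

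Most other names of the family were not in the table, and why they were absent was not tested. Of 21 other semaphorins, plexins and neuropilins looked for, 6 were in the table, Sema3g, Sema4f, Sema6b, Plxna2, Plxna3 and Nrp2. Nrp2 is the second neuropilin and is known as a receptor for class 3 semaphorins and Vegfc. It was at 10.9 and 6.93 CPM in control, 14.9 and 15.1 CPM in GN, 15.8, 12.6 and 17.8 CPM in EV+, and 12.4, 11.7 and 9.77 CPM in EV−. GN and EV+ lay wholly above control, as they did for 21.9% and 14.9% of all genes, and EV− overlapped control. All EV+ libraries lay above all EV− libraries, as they did for 4.25% of all genes.

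Nrp2 was the 1 gene of these 6 called in any comparison by limma, in EV+ against control, where 1.82% of all genes were called higher. Its log2 difference there was 0.74 (SE 0.20, limma adjusted p = 0.0754). The call was lost without control replicate 2 (adjusted p = 0.607, difference 0.45), GN replicate 1 (0.114), GN replicate 2 (0.115), EV+ replicate 1 (0.127) or EV+ replicate 3 (0.235). It was also lost by limma without the intensity trend (0.134) and in a fit to only EV+ and control (0.207). For GN against control the difference was 0.72 (SE 0.22, limma adjusted p = 0.184), which passed the threshold by the likelihood-ratio test (adjusted p = 0.0986), and for EV+ against EV− it was 0.41 (SE 0.18, unadjusted p = 0.0367, adjusted p = 0.9997 by limma).

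Among the remaining 5 genes, Sema3g ranged from 0.371 to 2.13 CPM. Sema6b was at 6.93 and 7.75 CPM in control, 4.77 and 5.88 CPM in GN, 4.96, 5.43 and 6.60 CPM in EV+, and 4.71, 7.49 and 8.91 CPM in EV−. Its EV groups overlapped, and its GN and EV+ means were below the control mean. These log2 differences from control, -0.40 in GN (SE 0.26, adjusted p = 0.651) and -0.33 in EV+ (SE 0.23, adjusted p = 0.560), were not called by limma. Plxna3, an A-type plexin that works with neuropilins, was at 0.385 and 0.619 CPM in control, 0.552 and 1.28 CPM in GN, 2.23, 0.337 and 1.92 CPM in EV+, and 4.42, 1.12 and 1.79 CPM in EV−. Its highest value stood in EV− replicate 1, the library with the highest NK and T cell sum. DESeq2 called Plxna3 in EV− against control, while limma gave a difference of 1.09 (SE 0.43, adjusted p = 0.282). Sema4f and Plxna2 reached 1.19 and 1.36 CPM and were at 0 in 3 and 4 libraries. Sema4f had 15 and 0 reads in the GN libraries. Its log2 difference of GN from control was -0.60 (SE 0.41, limma adjusted p = 0.680).

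The proteins around the receptors were taken from 6 lists that together had 43 genes in the table. Of the 5 other receptors and co-receptors, 1 was called, Cd72. Of 3 neuropilin ligands outside the semaphorins, 14 cytoplasmic partners, 10 small GTPases, 8 kinases and cofilin genes and 3 shedding proteases, 0 were called by limma in any comparison. At an unadjusted p under 0.05, limma picked 4 of the 43 genes in GN against control, 3 in EV+ against GN, 2 in EV− against GN, 1 in EV+ against EV−, 8 in EV+ against control and 5 in EV− against control. In that order the shares of all genes at this p were 10.4%, 7.13%, 7.85%, 4.57%, 15% and 13.1%. In the same order DESeq2 called 1, 0, 1, 1, 2 and 3, the likelihood-ratio test 2, 0, 1, 1, 2 and 3, and the quasi-likelihood test 0, 0, 0, 0, 0 and 1. The median log2 difference of the 43 genes lay between -0.05 and 0.00 in all 6 comparisons.

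Cd72, a receptor for Sema4d on B cells and some myeloid cells, was at 31.7 and 37.2 CPM in control, 25.2 and 23.1 CPM in GN, 19.7, 27.6 and 26.5 CPM in EV+, and 14.3, 16.5 and 14.0 CPM in EV−. Control was highest and EV− lowest, with no overlap between EV− and any other group. Of all genes, 12.8% had EV− libraries wholly below GN and 4.25% had EV+ libraries wholly above EV−. In EV− against GN the log2 difference of Cd72 was -0.66 (adjusted p = 0.162 by limma). Limma did not call it there, while DESeq2 and the likelihood-ratio test did. In EV− against control it was 0.433 of the control level on mean CPM, a log2 difference of -1.15 (SE 0.16, 95% interval -1.49 to -0.82, adjusted p = 0.00123 by limma). It was the 1 partner gene of 43 called lower in that comparison, in which 1.56% of all genes were called lower. The call held when each library was left out in turn, with adjusted p from 0.000382 to 0.0354.

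Between EV+ and EV−, Cd72 was higher in EV+ in each of the 3 same-numbered pairs, by a log2 difference of 0.68 (SE 0.14, unadjusted p = 0.000301 and adjusted p = 0.247 by limma). With the replicate block fitted to the 6 EV libraries the adjusted p was 0.0659, and with the EV pairs as a random block 0.0278, so the call changed with the pairing. These 2 fits were added after the data were seen. DESeq2 gave 0.00492 and the likelihood-ratio test 0.00242 without any pairing.

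Cd72 is also a B cell gene, and levels of B cell markers differed between some of the same groups. Of the 4 markers used here, Cd79b made up most of the sum, at 87.0 and 109 CPM in control, 42.1 and 67.6 CPM in GN, 66.0, 69.7 and 71.1 CPM in EV+, and 62.4, 73.0 and 71.7 CPM in EV−. The sum, 69.9 to 76.9 CPM in EV+ and 63.8 to 74.3 CPM in EV−, overlapped between these groups as Cd79b did. Ms4a1, Blk and Cr2 each stayed at or under 3.12 CPM. Ms4a1 was at 1.72, 1.60 and 1.52 CPM in EV+ and at 0.778, 0.153 and 0.739 CPM in EV−, and Blk at 1.02, 1.39 and 1.16 CPM in EV+ and at 0.486, 0.561 and 0.0389 CPM in EV−. Both were higher in every EV+ library than in every EV− library, as was Cd72. Of the 4 markers, 3 had a higher mean in EV+ than in EV−, and Cd79b did not, at a log2 difference of -0.0001. The median log2 difference of the 4 was 0.73, beside 0.68 for Cd72 and -0.01 over all genes. That median rested on Ms4a1, Blk and Cr2, which were low, and 0 markers were called by limma (smallest adjusted p = 0.934). The unadjusted limma p was 0.00781 for Ms4a1 and 0.0145 for Blk. In EV− against control 1 of the 4 had a higher mean, the median log2 difference was -0.25, and 0 were called. From control to GN, Cd79b fell by 0.85 on the log2 scale (SE 0.17, adjusted p = 0.0331). The part of B cells in the Cd72 levels was not tested.

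**Figure D4:**
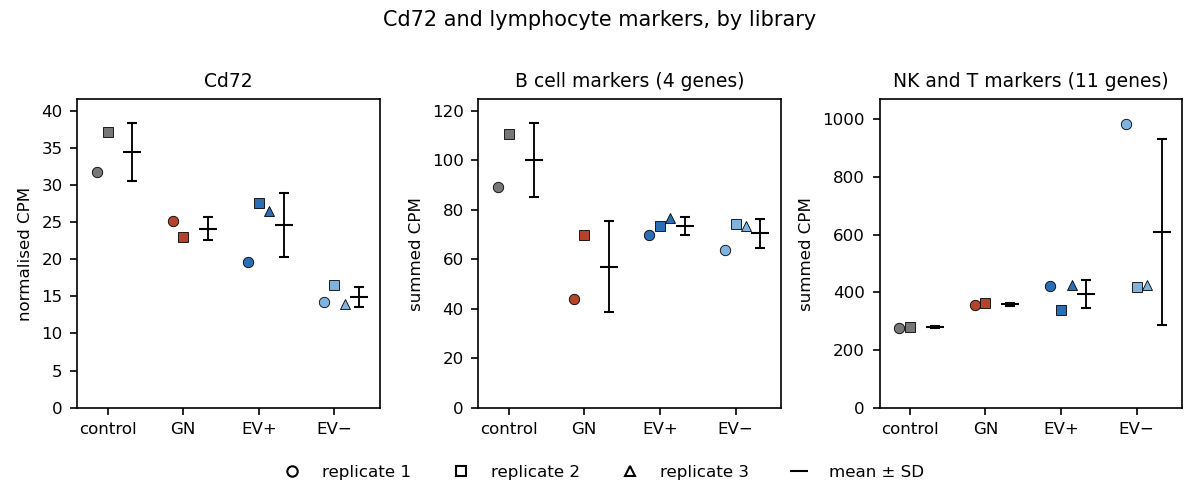
Cd72 in normalised CPM, and the summed CPM of 4 B cell markers and of 11 NK and T cell markers (vertical axes, from 0), by library and group with mean ± SD. The 3 EV− libraries of Cd72 sit at 14.0 to 16.5 CPM below all others, the B cell sums of EV+ and EV−, which are mostly Cd79b, overlap, and EV− replicate 1 stands at 983 CPM of NK and T cell markers, a sum that is mostly Cd8a and Cd8b in the other libraries.

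Partners with a known tie to a member differed little. Tyrobp, the signalling adaptor through which a plexin-A1 and Trem2 complex acts, ranged from 1380 to 2173 CPM, with its smallest adjusted p at 0.312. Itgb1, the integrin beta chain that plexin signalling regulates, ranged from 2204 to 2682 CPM. Gipc1, which binds the tails of neuropilin-1 and plexin-D1, ranged from 50.8 to 63.7 CPM. Adam17, a protease that sheds membrane ligands, ranged from 217 to 311 CPM. Sh3bp1, a Rac-inactivating protein that binds plexin-D1, ranged from 94.6 to 120 CPM. None of these 5 reached an adjusted p under 0.1 in any limma comparison.

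Of the exchange factors that bind B-type plexins, Arhgef11 ranged from 2.52 to 9.60 CPM and Arhgef12 from 0 to 1.94 CPM. The neuropilin ligands Vegfa and Tgfb1 ranged from 4.18 to 7.37 CPM and from 104 to 122 CPM. Over these 4 genes the smallest limma adjusted p was 0.435.

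The genes whose pattern over the 10 libraries was most like a member were named for the 3 members with the widest range of group means. Across libraries, Asl had a Pearson r of 0.946 with Sema4a, Phyhd1 0.924 and Hba1 0.921. For Sema4b they were Tcn2 (r = 0.949), Ndrg1 (0.928) and Taldo1 (0.920), and for Plxnd1 Aurka (0.913), Smad1 (0.880) and Sfxn5 (0.880). Hba1, a haemoglobin chain, was also one of the 2 erythroid markers. These values were the highest among about 9003 genes and the libraries fall in groups, so they are given without a test.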

How the data were processed

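The deposited table held 1 column for each of 10 libraries. Libraries were made with SMART-Seq v4 and Nextera XT kits and sequenced paired-end. The authors aligned reads to rn6 with STAR 2.5.3, counted RefSeq genes with HTSeq 0.6.0 in its intersection-strict mode, dropped genes with a maximum under 1 CPM and scaled the counts by TMM in edgeR, so the deposited values are a normalized signal in CPM and not counts. Steps of 1 read were found in every column, and 100% of the values gave whole reads within 0.001 read (or rounding of the printed digits). Of the symbols, 18 had been turned into dates.

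The main test was limma 3.58.1 in R 4.3.3 with an intensity trend on log2(value + 1), group as the 4-level term, all 9003 genes and 10 libraries, with Benjamini-Hochberg adjustment and calls at an adjusted p under 0.1. A fold change on this scale understates the change of low genes. Alternatives were edgeR 4.0.16 and DESeq2 1.42.0 on the recovered reads, another scaling, pseudocount, filter and threshold, no trend, a replicate block, fits to 2 groups and each library left out. The limma step was tested on simulated data with known changes, most of which it recovered. Those changes were at least 2-fold in either direction, in GN only, and in genes above a set mean level. Smaller changes, lower genes and paired EV libraries were not covered. Replicates differed by more than sampling noise.

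Named genes were the members, the other family genes, partners that passed the threshold or are tied to a member, and the 3 genes most like each of 3 members. Members and lists were chosen with earlier results of these data known. Same-numbered EV+ and EV− libraries, whose numbers come from the titles, correlated in their deviations from group means across genes (r = 0.203, 0.295 and 0.122). Different-numbered ones had r from -0.229 to -0.013. Deviations within a group cancel out, so positive same-numbered values force lower different-numbered ones. The latter are thus not separate evidence of pairing. The control and GN pairs had r = 0.088. 1 listed B cell marker is not reported here.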

Additional observations from a re-analysis of the deposited data

How the results depend on the processing

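By limma 231 genes were called among the 4 groups, 158 in GN against control, 11 in EV+ against GN, 34 in EV− against GN, 2 in EV+ against EV−, 327 in EV+ against control and 256 in EV− against control. In that order the edgeR likelihood-ratio test called 616, 292, 43, 126, 57, 516 and 444, DESeq2 543, 294, 41, 113, 34, 540 and 474, and limma without the trend 93, 60, 0, 6, 0, 186 and 94. At an adjusted p under 0.05 the counts were 97 in GN against control, 21 in EV− against GN, 192 in EV+ against control and 143 in EV− against control. The replicate block gave 30 in EV+ against GN, 53 in EV− against GN and 5 in EV+ against EV−. The last comparison gave 4 with a pseudocount of 0.1, and, in alternatives added after the data were seen, 49 with the block in the 6 EV libraries and 26 with EV pairs as a random block. A fit to only EV+ and control called 155.

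Of the 6 members, 1 was called among the 4 groups and 2 by the likelihood-ratio test and DESeq2, but 0 without the trend. In GN against control 1 was called and 2 by the likelihood-ratio test. In EV+ against GN and EV− against GN 0 were called, and 1 each with the replicate block. In EV+ against control 2 were called, and 1 at an adjusted p under 0.05, without the trend or in the fit to the 2 groups. In EV− against control 2 were called, 1 with the replicate block, and 0 at an adjusted p under 0.05, without the trend or in the fit to the 2 groups. Where these alternatives changed a call, the cause was not tested. The other listed alternatives, which included another scaling and a filter on low values, changed no count of members called.

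Leaving out 1 library at a time, all-gene counts ran from 97 to 266 among the 4 groups, 34 to 214 in GN against control, 0 to 18 in EV+ against GN, 7 to 42 in EV− against GN, 0 to 5 in EV+ against EV−, 114 to 390 in EV+ against control and 95 to 388 in EV− against control. Counts of members ran from 0 to 2 among the 4 groups and in both comparisons of an EV group with control, from 0 to 1 in GN against control and in EV− against GN, and stayed at 0 in the other 2.

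Only uncalled differences reversed. Plxnd1 in EV− against control was -0.11 and became 0.19 by the quasi-likelihood test, 0.20 by the likelihood-ratio test and by DESeq2, and 0.18 with the replicate block, and it ran from -0.64 to 0.17 with libraries left out. Also with libraries left out, Sema4a in EV+ against EV− ran from -0.29 to 0.36. Sema4b ran from -0.066 to 0.42 in EV+ against GN, -0.17 to 0.32 in EV− against GN and -0.024 to 0.19 in EV+ against EV−. Sema4d in EV− against GN ran from -0.13 to 0.082, Plxnb2 from -0.13 to 0.050 in GN against control and -0.019 to 0.18 in EV+ against EV−, and Nrp1 in GN against control from -0.020 to 0.12. The blocked values that changed a call of Sema4a, Sema4b or Cd72 stand beside those results, and the pairing changed no other call of the members, Nrp2 or Cd72.

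The groups held 2 or 3 libraries each. Plxnd1, Sema4f and Plxna2 had libraries at or under 3 reads, and intervals cover the spread between these libraries only.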
